A study of Mus musculus with 2 samples.

Results

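Potassium channels are described here across 92 genes of the mouse, out of 23532 gene symbols that were estimated in both libraries of the series. The genes were taken by name: a symbol that starts with Kcn, goes on with lower-case letters and ends in a number. Each of the 92 had a row of its own, and none shared its row with another symbol. Another 5 symbols that start with Kcn, among them the antisense transcript *Kcnq1ot1*, do not have this form and were left out.

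The RNA came from small-intestinal organoids, cultures of gut epithelium grown from isolated crypts in Matrigel with epidermal growth factor, noggin and R-spondin conditioned medium. All cells carried the ChgA-GFP reporter, which makes green fluorescent protein in cells that use the chromogranin A gene, and were sorted into a GFP+ fraction of about 1% of the epithelial cells and a GFP- fraction of the remainder. The comparison asks which genes mark the enterochromaffin cells, the serotonin-making endocrine cells of the gut. There was 1 library per fraction, made from amplified polyA RNA, so none of the differences could be checked on replicates or tested. The labels state neither the number of mice or cultures behind each library nor the age of the mice. The GFP- fraction is a mixture of all the other epithelial cells, and in such bulk samples fewer cells of a type and less RNA per cell cannot be told apart.

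Levels are in FPKM, a fragment count divided by transcript length and library size, so that levels of different genes within a library can be set side by side. Low values fell in steps that correspond to about 59.0 fragments per FPKM and kilobase in GFP- and 59.8 in GFP+. The reporter's own gene, *Chga*, had no estimate in GFP+. The other 6 of 6 estimated enterochromaffin markers were higher in GFP+ by the size rule given below, *Tph1* at 1359 FPKM against 17.5 FPKM in GFP-. All 6 Paneth cell markers were lower. Of all genes that reached 1 FPKM in either library, 7.09% were higher and 4.59% lower by that rule. The median log2 ratio of GFP+ to GFP- was -0.50 over the 5563 genes that had 10 FPKM or more in each library.

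Potassium channels let potassium ions leave the cell down their gradient, which holds the membrane potential negative and ends electrical spikes. The pore is built from alpha subunits. Those of the voltage-gated class open on depolarisation, inward rectifiers pass current best at negative potentials, two-pore channels leak at rest and calcium-activated channels respond to calcium inside the cell. Auxiliary subunits form no pore and change the gating or the transport of the pore subunits. In the crypt epithelium, potassium channels on the basolateral side recycle potassium and keep up the driving force for chloride secretion, and in endocrine cells they set excitability and hormone release.

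The regions upstream of 5 genes that passed the size rule given below are shown first: 3 that were higher in GFP+ (*Kcnh6*, *Kcnj5*, *Kcnj3*) and both that were lower (*Kcnn4*, *Kcne3*). The windows run from 250 bases before to 50 bases after a RefSeq transcript start (GRCm38.p6, the mm10 assembly), 5′ to 3′ on the strand of the gene. Capitals mark the GC box GGGCGG or its reverse complement, and the first *Kcne3* window has none. The window of *Kcnh6* is chr11:106007898-106008197 (plus strand), that of *Kcnj5* chr9:32344295-32344594 (minus strand), that of *Kcnj3* chr2:55435720-55436019 (plus strand), that of *Kcnn4* chr7:24370013-24370312 (plus strand) and that of the first of 2 *Kcne3* starts chr7:100176420-100176719 (plus strand).
Kcnh6: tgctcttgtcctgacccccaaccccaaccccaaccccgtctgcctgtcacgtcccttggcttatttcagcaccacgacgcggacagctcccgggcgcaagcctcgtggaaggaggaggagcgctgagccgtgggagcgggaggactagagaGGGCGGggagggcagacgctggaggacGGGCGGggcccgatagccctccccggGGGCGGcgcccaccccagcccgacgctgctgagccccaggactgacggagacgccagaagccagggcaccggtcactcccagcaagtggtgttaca
Kcnj5: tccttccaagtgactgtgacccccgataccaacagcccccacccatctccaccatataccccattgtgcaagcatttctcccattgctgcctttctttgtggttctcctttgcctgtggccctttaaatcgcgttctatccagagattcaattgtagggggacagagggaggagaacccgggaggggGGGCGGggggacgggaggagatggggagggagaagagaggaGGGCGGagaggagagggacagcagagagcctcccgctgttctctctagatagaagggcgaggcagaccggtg
Kcnj3: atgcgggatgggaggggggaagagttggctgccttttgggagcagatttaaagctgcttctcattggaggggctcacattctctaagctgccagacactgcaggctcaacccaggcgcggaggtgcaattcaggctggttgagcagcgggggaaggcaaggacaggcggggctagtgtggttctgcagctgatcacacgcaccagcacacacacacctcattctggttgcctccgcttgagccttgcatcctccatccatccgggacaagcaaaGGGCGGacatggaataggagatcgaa
Kcnn4: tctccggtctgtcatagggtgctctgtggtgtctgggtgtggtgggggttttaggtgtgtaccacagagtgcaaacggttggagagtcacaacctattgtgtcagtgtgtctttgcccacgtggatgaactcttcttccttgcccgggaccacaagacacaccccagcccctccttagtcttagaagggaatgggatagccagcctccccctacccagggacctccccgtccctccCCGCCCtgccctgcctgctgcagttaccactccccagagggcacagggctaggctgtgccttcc
Kcne3: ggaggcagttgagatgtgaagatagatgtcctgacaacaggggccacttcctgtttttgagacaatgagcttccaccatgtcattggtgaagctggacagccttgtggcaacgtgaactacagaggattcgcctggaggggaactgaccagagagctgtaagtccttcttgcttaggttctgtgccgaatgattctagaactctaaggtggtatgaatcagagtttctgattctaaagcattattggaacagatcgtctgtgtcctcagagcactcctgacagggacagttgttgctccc

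The table of such windows held 67 of the 92 genes, with 92 windows, and 13 of the 19 genes that reached 1 FPKM. On either strand, GGGCGG was present in 47.8% of the potassium channel windows and in 35.7% of all 32851 windows of this length. Counted by gene, it was found for 42 of the 67 genes and for 10 of the 13. A gene can have several windows, so counts of genes cannot be set against shares of windows. The 10 include genes higher in GFP+ (*Kcnh6*, *Kcnj5*, *Kcnj3*, *Kcnh2*, *Kcnc1*) and genes lower (*Kcnn4*, and *Kcne3* at its second start). The TATA box TATAAA was present in 5.43% of the potassium channel windows, in none of the 13 genes, and in 13.6% of all windows. TTCAGCACC occurred in 1 potassium channel window, that of *Kcnh6*, and in 0.371% of all windows. TTCAGCACC is the left part of RE1, the element read by the silencer REST, which keeps neuronal genes off in other cells. The full right part of that element and its core were searched as well, and were found in 0 of the 92 windows, that of *Kcnh6* included. The first bases of the right part, GGACAG, do follow TTCAGCACC in the *Kcnh6* window, after 7 bases. This pair, within 20 bases, was present in 13 of all 32851 windows (0.0396%). The pair was chosen after values were seen, so nothing is read from its rarity. A match of letters is not a measured site. The median ratio of observed to expected CpG was 0.434 over the potassium channel windows and 0.384 over all windows.

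**Figure D1:**
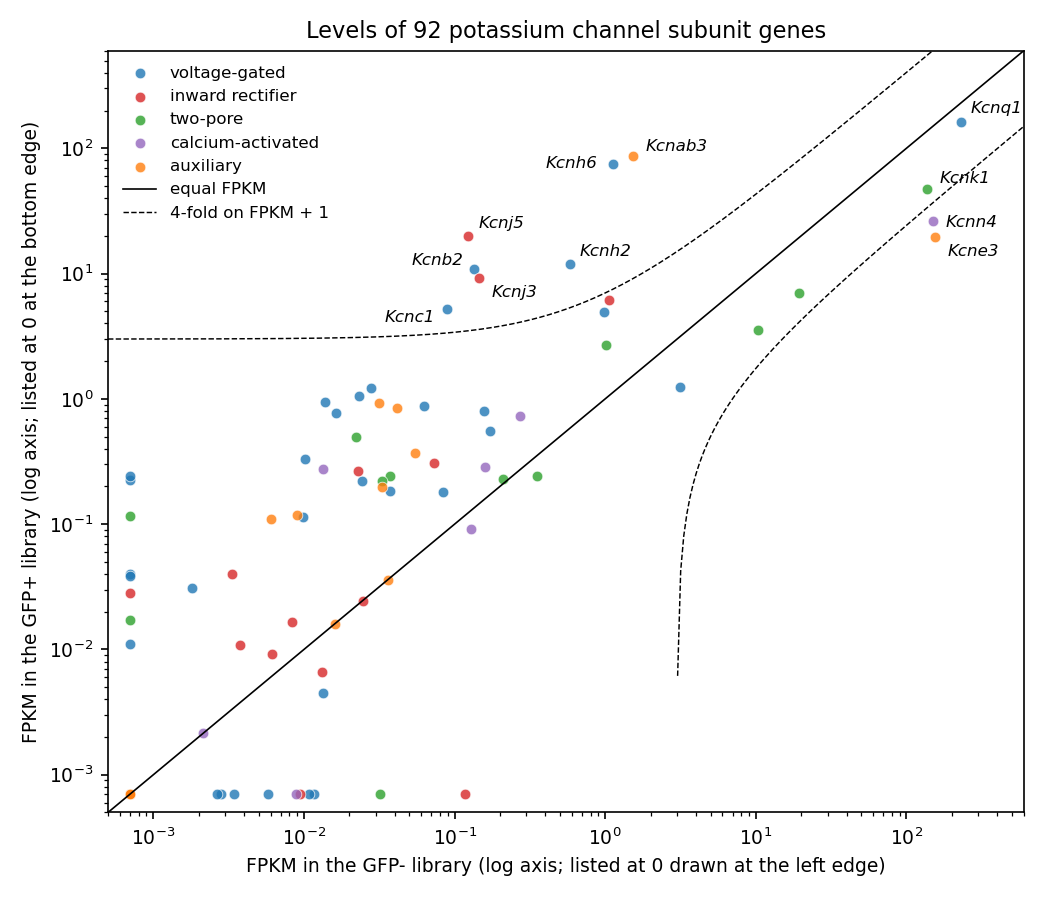
FPKM of each of the 92 potassium channel subunit genes in the GFP- library (horizontal, log axis) and the GFP+ library (vertical, log axis), coloured by class. Dashed lines mark a 4-fold difference on FPKM + 1; 7 genes lie above the upper line, 2 below the lower line, and most genes sit below 1 FPKM in both libraries.

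Differences are given as log2((FPKM + 1) in GFP+ / (FPKM + 1) in GFP-), and a gene is called higher or lower where this value is at least 2, or at most -2, that is 4-fold. The added 1 makes the scale understate the change of genes with low values. By this rule 7 of the 92 genes were higher in GFP+ and 2 were lower. Without a filter, 3.57% of all 23532 symbols were called higher and 2.32% lower. Of all 11868 genes that reached 1 FPKM in either library, 7.09% were called higher and 4.59% lower. Of the potassium channel genes 19 reached that level, the 7 higher and 2 lower ones among them, and 73 did not. All 19 were at least at 1 FPKM in GFP+. Of these, 8 were below 1 FPKM in GFP-, so they entered through the library in which they are high and had to come out above 0. They include 5 of the 7 called genes. The median difference was 1.10 over the 19 genes, -0.12 over all 11868 genes tested, and 0.02 over all 92 potassium channel genes.

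The levels of the 92 genes summed to 712 FPKM in GFP- and to 515 in GFP+ as deposited. As a share of the summed FPKM of all genes this was 0.114% in GFP- and 0.127% in GFP+. The direction of the sum thus depends on the scale. The genes that made up the sum differed. The 4 most abundant of them held 94.1% of the sum in GFP- and 72.4% in GFP+. *Kcnq1* alone was 32.1% of it in GFP- and 31.7% in GFP+. In GFP- the order was *Kcnq1*, *Kcne3*, *Kcnn4*, *Kcnk1*. In GFP+ it was *Kcnq1*, *Kcnab3*, *Kcnh6*, *Kcnk1*, with *Kcnn4* and *Kcne3* at ranks 5 and 7. Voltage-gated genes made up 33.1% of the sum in GFP- and 54.4% in GFP+, and inward rectifiers 0.226% and 6.94%. Two-pore genes went the other way, from 23.6% to 12.02%, as did calcium-activated genes, from 21.3% to 5.34%. The share of auxiliary genes was 21.9% and 21.3%, carried by *Kcne3* in GFP- and by *Kcnab3* in GFP+.

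**Figure D2:**
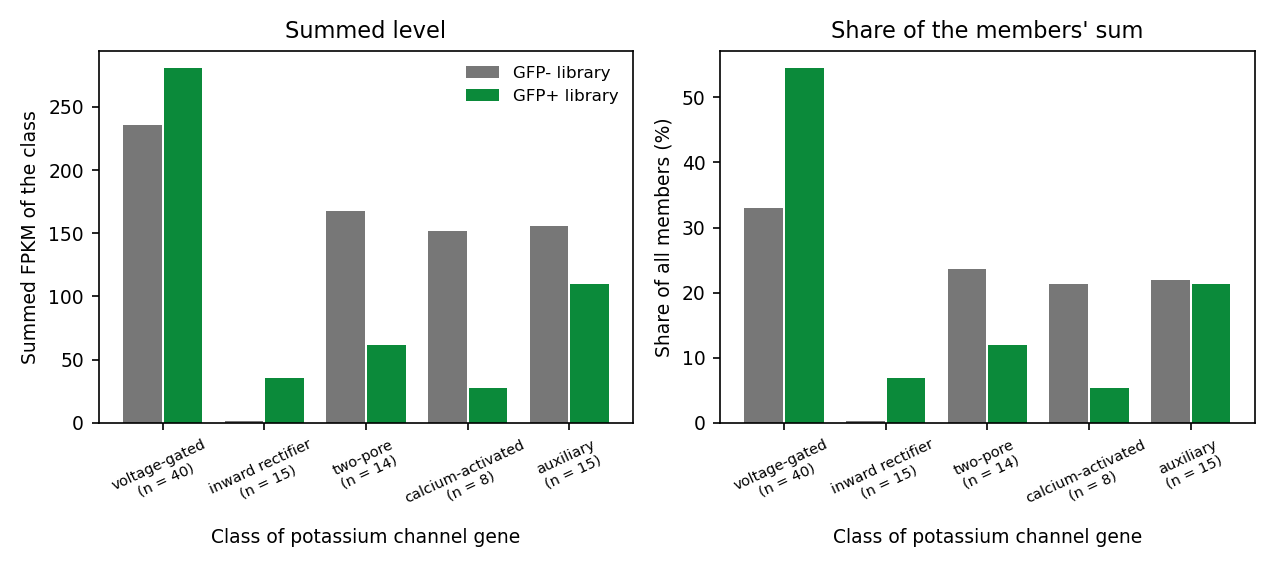
Summed FPKM of each class of potassium channel gene (left) and its share of the sum over all 92 genes in percent (right), for the GFP- and GFP+ library, with n the number of genes in the class. Inward rectifiers go from 1.61 to 35.7 FPKM, and calcium-activated genes from 151 to 27.5 FPKM. The sums are as deposited, with the libraries not set to one total.

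Of 40 voltage-gated pore and modifier genes, 9 reached 1 FPKM, all 9 of them in GFP+ and 3 in GFP-. As deposited, 4 were called higher and none lower, beside 7.09% and 4.59% of all genes that reached 1 FPKM. The ether-a-go-go related genes stood at the top. *Kcnh6*, which encodes the ERG2 pore subunit (listed locus chromosome 11, 106008203 to 106034064, mm10, plus strand, protein-coding), stood at 1.12 FPKM in GFP- and at 75.0 in GFP+, with upper confidence bounds of 3.13 and 161 FPKM. The ratio was 67.0 and the difference 5.16, the highest of the 92 genes. These levels stand for about 222 and 15100 fragments, if the longest annotated transcript is taken, so counting error is small beside the difference. *Kcnh2*, which encodes ERG1, the channel that repolarises heart muscle (chromosome 5, 24319589 to 24351604), stood at 0.580 FPKM in GFP- and at 11.9 in GFP+, a difference of 3.03. The 2 genes were thus both high in GFP+, and *Kcnh6* was the more abundant of them there. *Kcnh3*, of the ELK group, was at 0.986 and 4.92 FPKM, a difference of 1.58 that missed the size rule. Its listed locus is merged with that of *Mcrs1*, a gene on the other strand whose exons overlap its own and which was at 21.0 and 10.0 FPKM. The labels do not state whether the counting used the strand, so the value of *Kcnh3* is uncertain.

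Delayed rectifiers of the Kv2 and Kv3 groups shorten action potentials in neurons and endocrine cells. *Kcnb2* and *Kcnc1* of these groups were low in GFP- and called higher in GFP+. Of the 4 Kv3 genes only *Kcnc1* reached 1 FPKM. In GFP+, 2 of the 4 were at a higher level and 1 at a lower one, and 1 was listed at 0 in both libraries. *Kcnb2*, a Kv2 subunit (chromosome 1, 15312452 to 15714214), stood at 0.134 FPKM in GFP- and at 10.9 in GFP+, a difference of 3.39. *Kcnc1*, a Kv3 subunit of fast-firing neurons (chromosome 7, 46396468 to 46438704), was at 0.0888 and 5.17 FPKM, a difference of 2.50 and the smallest among the genes called higher. The Kv4 subunit *Kcnd1* was at 0.0279 and 1.21 FPKM, a ratio of 43.3 and a difference of 1.10. For *Kcnd1* the pseudocount is close to the larger value, which is why so high a ratio came with a small difference.

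The most abundant potassium channel gene showed the smallest difference of the 19. *Kcnq1*, the pore subunit of the epithelial and cardiac Kv7 channel (chromosome 7, 143107254 to 143427042), stood at 229 FPKM in GFP- and at 163 in GFP+, a difference of -0.48. This is close to the median of well-expressed genes given above, and it turned to 0.02 with the median ratio set to 0 and to 0.14 with both libraries at one total. Its antisense transcript *Kcnq1ot1* was at 0.0123 and 0.0602 FPKM. The modifier subunit *Kcnf1*, which is silent on its own and joins Kv2 subunits, was at 3.14 and 1.25 FPKM, a difference of -0.88, and was the other one of the 9 genes below 0.

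The Kv1 group was low in both libraries. None of its 8 pore genes was above 0.0244 FPKM in GFP- or above 0.219 FPKM in GFP+, *Kcna7* being the highest in both. *Kcnab3*, by contrast, which encodes a cytoplasmic beta subunit known as a partner of Kv1 pores (chromosome 11, 69326258 to 69333041), stood at 1.52 FPKM in GFP- and at 87.4 in GFP+. The ratio was 57.4, the difference 5.13, and the upper confidence bounds were 4.31 and 188 FPKM. It was the second most abundant potassium channel gene in GFP+ and ranked 973 among all genes there, and 10033 in GFP-. An antisense gene, *Kcnab3os*, overlaps its exons in the annotation, and its value is not given apart. The same is true of genes on the other strand that overlap *Kcne3*, *Kcnj3* and *Kcnk1*. Of the genes that reached 1 FPKM, 7 have exons that overlap another gene. The other cytoplasmic beta subunits were low: *Kcnab1* was at 0.00608 and 0.109 FPKM, and *Kcnab2* was listed at 0 in both libraries.

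**Figure D3:**
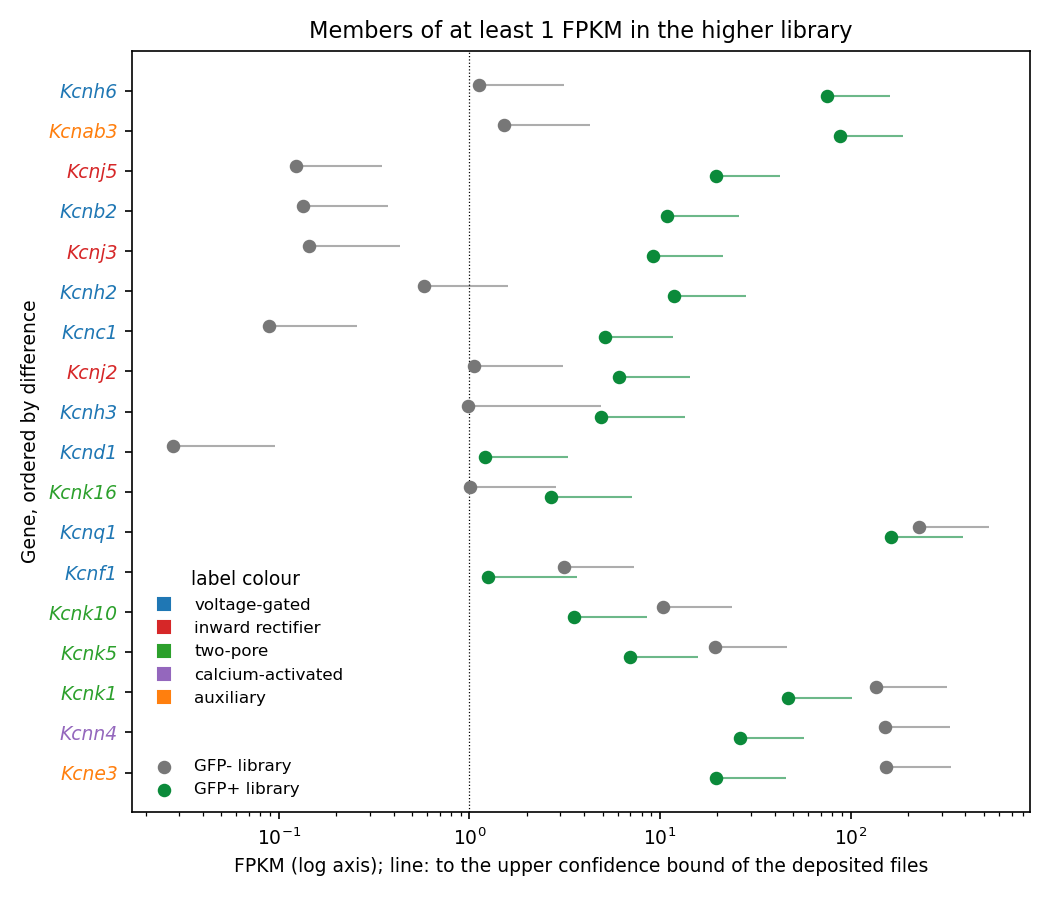
FPKM (log axis) of 18 of the 19 potassium channel genes that reached 1 FPKM, grey for GFP- and green for GFP+, ordered by difference. Lines run to the upper confidence bound in the deposited files, whose lower bounds are at 0; *Kcnh6* and *Kcnab3* are at the top with 75.0 and 87.4 FPKM in GFP+, and *Kcne3* is at the bottom with 154 FPKM in GFP-.

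Inward rectifiers were represented by the G protein-gated pair and by *Kcnj2*. Of 15 genes 3 reached 1 FPKM, and 2 were called higher, beside 7.09% of all genes that reached it. *Kcnj5*, the GIRK4 subunit (chromosome 9, 32314783 to 32344237, minus strand), stood at 0.123 FPKM in GFP- and at 19.8 in GFP+. Its ratio of 161 was the highest of the 19 genes and its difference was 4.21. *Kcnj3*, the GIRK1 subunit (chromosome 2, 55437156 to 55595525), stood at 0.145 FPKM in GFP- and at 9.14 in GFP+, a ratio of 63.1 and a difference of 3.15. GIRK1 and GIRK4 assemble into the channel through which receptors coupled to inhibitory G proteins quiet heart muscle and endocrine cells. In GFP+ the level of *Kcnj5* was 2.16 times that of *Kcnj3*. The other GIRK genes were low, with *Kcnj6* at 0.0229 and 0.264 FPKM and *Kcnj9* listed at 0 in both libraries. *Kcnj2*, a strong rectifier that holds the resting potential (chromosome 11, 111066164 to 111076825), was at 1.06 and 6.13 FPKM, a difference of 1.79 that missed the rule as deposited and passed it, at 2.23 and 2.58, under either other scaling.

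The pore of the ATP-sensitive channel, which couples glucose to insulin release in pancreatic beta cells, was not found in GFP+. *Kcnj11* was at 0.118 FPKM in GFP-, about 21.8 fragments, and listed at 0 in GFP+, while its relative *Kcnj8* was at 0.0246 and 0.0245 FPKM. Of the sulfonylurea receptor genes that complete this channel, *Abcc8* was at 0.654 and 0.382 FPKM, and *Abcc9* was listed at 0 in GFP- and at 0.00449 FPKM in GFP+. *Kcnj13* was at 0.0727 and 0.305 FPKM, but its exons overlap those of *Gigyf2*, at 5.63 and 11.6 FPKM.

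Two-pore genes showed no call in either direction. Of 14 genes 4 reached 1 FPKM, in both libraries, and 3 of these 4 lay below 0. *Kcnk1*, the TWIK-1 subunit (listed locus chromosome 8, 125995102 to 126030688), stood at 136 FPKM in GFP- and at 47.2 in GFP+, a difference of -1.51. *Kcnk5*, the acid-sensitive TASK-2 subunit of transporting epithelia, was at 19.4 and 6.95 FPKM, a difference of -1.36. *Kcnk10*, the stretch-sensitive TREK-2 subunit, was at 10.4 and 3.54 FPKM, a difference of -1.32. The ratio of GFP- to GFP+ was alike for these 3 genes, at 2.89, 2.79 and 2.93. *Kcnk16*, the TALK-1 subunit known from pancreatic islets, was at 1.01 and 2.67 FPKM, a difference of 0.87. It lies 79566 bases from *Kcnk5* on the same strand of chromosome 14, and the neighbours thus lay on opposite sides of 0. The other 10 genes were below 1 FPKM, and *Kcnk3* was the highest of them in GFP+, at 0.0222 FPKM in GFP- and 0.491 in GFP+.

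Among 8 calcium-activated genes and their relatives, only *Kcnn4* reached 1 FPKM. It encodes the intermediate-conductance channel of the basolateral membrane (chromosome 7, 24370263 to 24385212), and stood at 151 FPKM in GFP- and at 26.1 in GFP+, with upper bounds of 331 and 57.0 FPKM. The ratio of GFP- to GFP+ was 5.77 and the difference -2.48, which came to -1.999 when the median ratio was set to 0, just short of the rule, and to -1.89 with one total. The large-conductance BK pore *Kcnma1* was at 0.270 and 0.733 FPKM, a difference of 0.45. Of the small-conductance genes, *Kcnn1* was at 0.129 and 0.0915 FPKM and *Kcnn3* at 0.00214 FPKM in each library. The sodium-activated *Kcnt1* was at 0.0135 and 0.273 FPKM and the sperm channel gene *Kcnu1* at 0.159 and 0.284 FPKM.

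*Kcne3* had the lowest difference of the 92 genes. This single-span subunit holds *Kcnq1* channels open in intestinal crypts (listed locus chromosome 7, 100176670 to 100184869). It stood at 154 FPKM in GFP- and at 19.6 in GFP+, with upper bounds of 336 and 45.6 FPKM. The ratio of GFP- to GFP+ was 7.87 and the difference -2.91, which stayed past the rule under each other pseudocount and scaling tried. The level of *Kcnq1* was 1.48 times that of *Kcne3* in GFP- and 8.34 times in GFP+. The other subunits of this kind were low, with *Kcne2* at 0.0331 and 0.198 FPKM and *Kcne1* and *Kcne4* listed at 0 in both libraries. The remaining auxiliary genes stayed below 1 FPKM. *Kcnip3*, a calcium-binding partner of Kv4 pores that also acts in the nucleus, was at 0.0316 and 0.923 FPKM, and *Kcnmb2*, a BK beta subunit, at 0.0415 and 0.841 FPKM.

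The calls depended on the scale, and so did the background. At a pseudocount of 0.1, 11 of 19 potassium channel genes were called higher and 2 lower, against 12.8% and 6.82% of all genes tested. At a pseudocount of 5 the counts were 3 and 2 of 19, against 2.97% and 2.65%. The other scalings brought more potassium channel genes to 1 FPKM. With the median ratio set to 0, 9 of 26 were higher and 1 lower, against 10.8% and 1.51%. With both libraries at one total the counts were again 9 and 1, of 28, against 13.4% and 1.2%. *Kcnh6*, *Kcnab3* and *Kcnj5* were higher and *Kcne3* lower in each of these 5 settings. The counts stayed 7 and 2 without the filter, of 92, against 3.57% and 2.32%, and with a filter at 5 FPKM, of 14, against 8.16% and 5.82%.

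**Figure D4:**
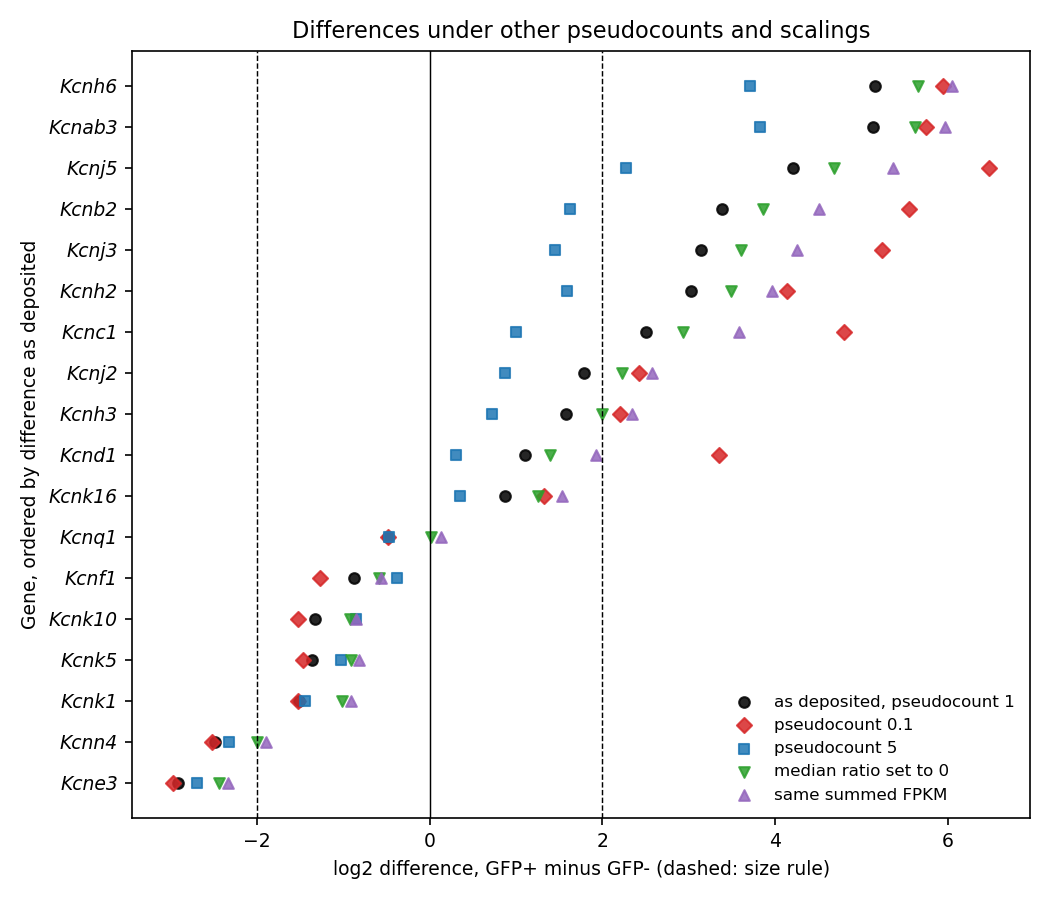
log2 difference (GFP+ minus GFP-) of 18 of the 19 genes as deposited with a pseudocount of 1 and under 2 other pseudocounts and 2 other scalings; dashed lines mark the size rule of 2. *Kcnh6*, *Kcnab3* and *Kcnj5* stay above 2 and *Kcne3* below -2 in all 5 settings, and *Kcnq1* changes sign.

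The genes called higher were all low in GFP-, and their level there was between 0.620% and 4.89% of that in GFP+. It was 0.620% for *Kcnj5*, 1.23% for *Kcnb2* and 1.49% for *Kcnh6*. For *Kcnj3* it was 1.59%, for *Kcnc1* 1.72%, for *Kcnab3* 1.74% and for *Kcnh2* 4.89%. The range of the enterochromaffin markers on the same measure is given by their ratios of GFP+ to GFP-, which ran from 6.29 for *Ddc* through 77.6 for *Tph1* to 245 for *Trpa1*. The potassium channel ratios ran from 20.5 to 161. These genes were picked for being higher in GFP+, so nothing is read from their place in that range.

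Below 1 FPKM, 38 of the 73 genes were at a higher level in GFP+ than in GFP-, 18 at a lower one, and 17 were listed at 0 in both. With no test, and with few fragments behind most of these values, no direction is read from a single gene here. The highest were *Kcnh1* (EAG1) at 0.0139 and 0.939 FPKM, and *Kcnip3*. *Kcnh8* was at 0.0625 and 0.879 FPKM and the modifier *Kcnv2* at 0.0163 and 0.774 FPKM. These genes were thus detected just under the threshold in GFP+, *Kcnh1* with about 407 fragments and *Kcnv2* with about 236. Of the other modifier groups, *Kcns3* was at 0.171 and 0.554 FPKM and *Kcng3* at 0.0102 and 0.331 FPKM. *Kcnd3* of the Kv4 group was at 0.0116 FPKM in GFP- and listed at 0 in GFP+.

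The 17 genes listed at 0 in both libraries were *Kcna3*, *Kcnab2*, *Kcnc4*, *Kcnd2*, *Kcne1*, *Kcne4*, *Kcng1*, *Kcnh5*, *Kcnj9*, *Kcnk13*, *Kcnk15*, *Kcnmb3*, *Kcnmb4*, *Kcnq3*, *Kcnq5*, *Kcnt2* and *Kcnv1*. A count of 0 allows up to 3 fragments, which for these genes is 0.00430 to 0.0313 FPKM in GFP- and 0.00424 to 0.0309 FPKM in GFP+, counting error only. They include the neuronal Kv7 genes *Kcnq3* and *Kcnq5*. Another 8 genes were listed at 0 in GFP- alone, with *Kcnh7* the highest in GFP+ at 0.240 FPKM, where its exons overlap those of *Gca*. Another 10 were listed at 0 in GFP+ alone, with *Kcnj11* the highest in GFP- and the next at 0.0321 FPKM.

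Within 100 kb of each other there were 9 neighbouring pairs of potassium channel genes. *Kcnj5* was at 19.8 FPKM in GFP+ while *Kcnj1*, 28142 bases away on chromosome 9, was at 0.0280 FPKM. *Kcnj2* was at 6.13 FPKM in GFP+ while *Kcnj16*, 38195 bases away on chromosome 11, was listed at 0. The Kv1 neighbours on chromosomes 3 and 6 and the pairs *Kcnj9* and *Kcnj10*, *Kcne1* and *Kcne2*, and *Kcnip1* and *Kcnmb1* were all below 1 FPKM.

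Genes that work with potassium channels were compared in 2 lists of 47 genes in all, 25 of which reached 1 FPKM. Of 17 channel partners 9 reached 1 FPKM, and 2 of these were called higher and 1 lower, beside 7.09% and 4.59% of all genes that reached it. One of those called higher was *Tmem38a*, a cation channel of the endoplasmic reticulum, at 0.886 and 13.7 FPKM, a difference of 2.97. Called lower was the row that joins *Lrrc26*, a BK gamma subunit, with *Grin1os*, at 57.0 and 7.13 FPKM and a difference of -2.83. *Lrrc26* lets BK channels open in secretory epithelia, and the BK pore itself was below 1 FPKM in both libraries. *Amigo1*, a partner of Kv2 channels, was at 1.98 and 5.36 FPKM, a difference of 1.09, and the Kv4 partners *Dpp6* and *Dpp10* were below 1 FPKM. The lysosomal potassium channel gene *Tmem175* was at 16.1 and 10.4 FPKM.

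Of 30 genes of potassium and chloride transport 16 reached 1 FPKM, and 2 of these were called higher and none lower. The same shares over all genes were 7.09% and 4.59%, and nothing particular to either list is read from counts this small. *Fxyd6*, a regulator of the sodium pump, stood at 3.59 FPKM in GFP- and at 336 in GFP+, a difference of 6.20. *Slc12a7*, a potassium and chloride cotransporter, was at 18.5 and 96.0 FPKM, a difference of 2.32. *Atp1b1* was at 248 and 260 FPKM, *Atp1b3* at 71.8 and 65.7 FPKM and *Fxyd3* at 60.6 and 89.7 FPKM. *Atp1b1* and *Atp1b3*, beta subunits of the pump, differed by less than 10% between the fractions as deposited. Both lay above the median log2 ratio of well-expressed genes, -0.50, so this likeness depends on the scale. As deposited, the chloride channel and cotransporter genes *Cftr*, *Slc12a2* and *Clcn2* were also at a lower level in GFP+, but short of the size rule. *Kcne3* and *Kcnn4* passed it as deposited, and *Kcnn4* missed it under either other scaling. The chloride channel *Cftr* was at 20.2 and 14.7 FPKM, a difference of -0.44. That is close to the median log2 ratio of well-expressed genes, so the lower level of *Cftr* depends on the scale. The basolateral cotransporter *Slc12a2* was at 48.4 and 24.2 FPKM, a difference of -0.97. *Clcn2*, a chloride channel, was at 27.5 and 14.2 FPKM. *Slc12a8* and *Slc12a9* were at 38.3 and 15.6 FPKM and at 10.8 and 33.2 FPKM.

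**Figure D5:**
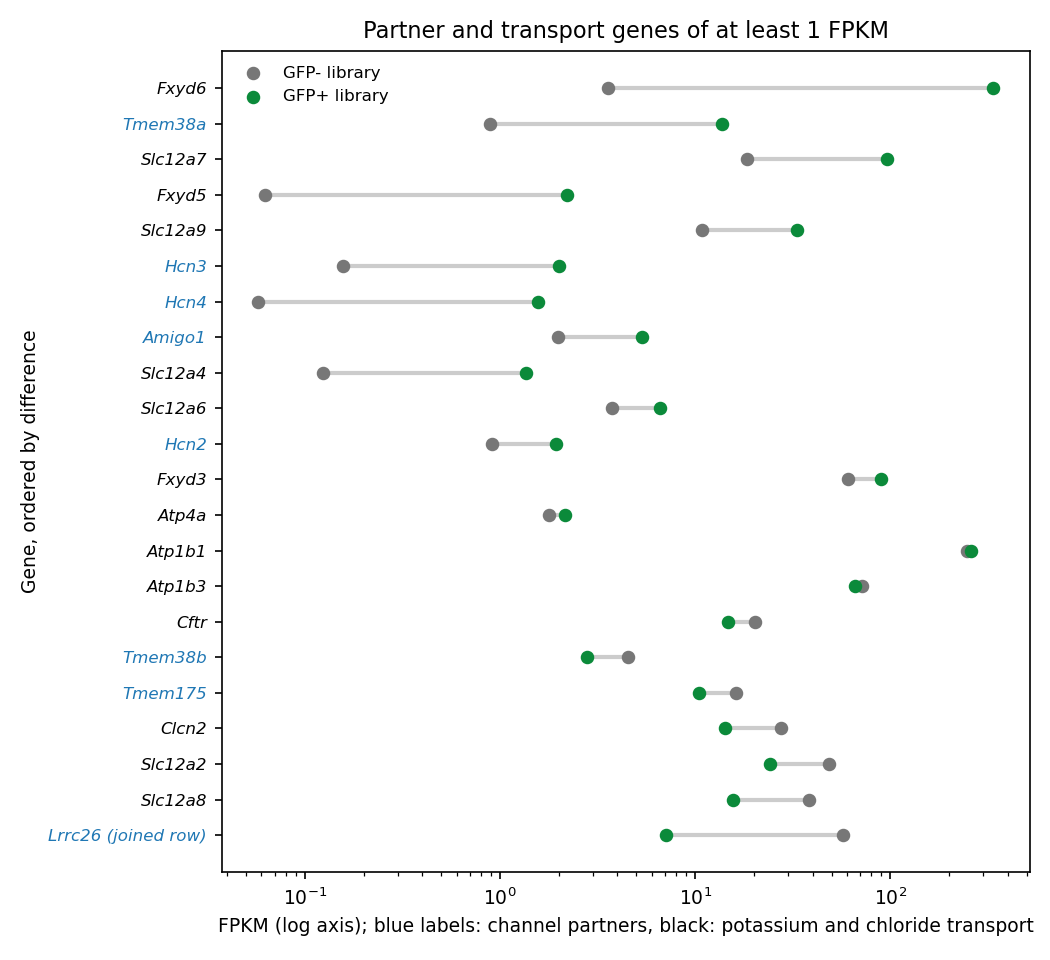
FPKM (log axis) of 22 of the 25 partner and transport genes of at least 1 FPKM, grey for GFP- and green for GFP+, ordered by difference; the *Lrrc26* row also holds *Grin1os*. *Fxyd6* and *Tmem38a* lie at the top with 336 and 13.7 FPKM in GFP+, and the *Lrrc26* row at the bottom with 57.0 FPKM in GFP-.

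Markers of other cell types also differed between the libraries. The shares over all genes that reached 1 FPKM were 7.09% called higher and 4.59% called lower. Of 7 neuronal markers 2 were called higher in GFP+, *Nefm* and *Ret*, and their summed level was 3.04 FPKM in GFP- and 29.6 FPKM in GFP+, with *Elavl3* and *Elavl4* below 1 FPKM. Of 3 endothelial markers *Pecam1* was called higher, while *Cdh5* and *Kdr* were at most at 0.00845 FPKM. None of the glial, muscle and interstitial, immune and fibroblast markers was called. The glial sum was 0.275 FPKM in GFP- and 1.71 in GFP+, with *Sox10* listed at 0 in GFP-, and *Gfap* was at 0.00642 and 1.01 FPKM, a ratio of 157. The fibroblast sum was 0.0191 and 3.59 FPKM, with *Dcn* listed at 0 in GFP-, and the ratio was 147 for *Col1a1* and 271 for *Col3a1*. *Gfap*, *Col1a1* and *Col3a1* were thus at a higher level in GFP+ too, though at most at 1.61 FPKM. The muscle and interstitial sum was 9.55 and 14.8 FPKM, with *Myh11* listed at 0 in GFP-, and the immune sum 1.68 and 3.01 FPKM, with *Cd3e* listed at 0 in GFP+. Beside the genes called lower, 2 of 4 stem cell markers, 6 of 6 Paneth, 2 of 6 goblet, 2 of 7 enterocyte, 1 of 5 tuft and 4 of 7 markers of other endocrine cells were lower. The stem cell sum was 1366 FPKM in GFP- and 342 FPKM in GFP+. The enterocyte sum was 3536 and 1673 FPKM, the goblet sum 3079 and 1290 FPKM and that of other endocrine cells 580 and 180 FPKM. Over the markers that reached 1 FPKM, the median difference was -0.04 for enterocytes and -0.22 for goblet cells. Markers of these cell types thus remained at a high level in GFP+. The part of these cells in the potassium channel differences was not tested.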

How the data were processed

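Per the file headers, the values are FPKM with confidence bounds and a status, in 1 table of 23793 rows per library. The submitters' processing notes name FastQC, TopHat2 0.7, Cufflinks and Cuffdiff on mm10. For the annotation, library scaling, strand use and handling of reads with several matches the choice made was not given in the sources used here. *Gapdh*, a gene with many near-identical copies, was listed at only 2.48 and 1.47 FPKM, and the cause was not tested. Rows without an estimate (5 in GFP+) were left out, and FPKM was summed per symbol. All 92 genes had the status OK and a lower bound of 0 in both libraries. The difference is log2((FPKM + 1) in GFP+ / (FPKM + 1) in GFP-), over symbols that reached 1 FPKM in either library. The size rule of 2 was checked on simulated data only for larger changes, in genes with a mean of at least 10 FPKM. That check does not cover genes of lower level. No test was possible with 1 library per fraction. Fragments were estimated from the lowest step of FPKM times length in single-transcript genes over 3000 bases, with lengths from GENCODE M21. The step was chosen from the same values, and fragments were amplified and carry no molecular identifiers, so limits cover counting error only. Locus starts were shifted to count from 1. The named genes are all those of at least 1 FPKM, the highest gene of each subfamily below that, genes listed at 0, and partners past the rule or of at least 10 FPKM. The other genes named, such as relatives and neighbours of these and partners between 1 and 10 FPKM, were chosen after values were seen. So were the motifs (13 searched, 5 given in the text) and the pair of RE1 parts. The genes and lists were chosen with earlier results of these data known. Some genes covered by this rule are not reported here by name, and the plots that name genes leave them out, while counts, sums and medians include them. Python 3.11.15, pandas 2.3.3 and numpy 2.4.6 were used.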

Additional observations from a re-analysis of the deposited data

How the results depend on the processing

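No paired analysis was possible because each fraction has 1 library, and for the same reason no library could be left out. With a pseudocount of 0.1 in place of 1, 11 potassium channel genes were higher (12.8% of all genes tested), with a median difference of 2.43, and 9 partner and transport genes were higher in place of 4. With a pseudocount of 5, 3 were higher (2.97% of all), with a median of 0.35. *Kcnb2*, *Kcnc1*, *Kcnh2* and *Kcnj3* then fell short of it. With a median ratio of 0 or with one total, 26 and 28 potassium channel genes reached 1 FPKM. Of these 1 was lower (1.51% and 1.2% of all), since *Kcnn4* missed the rule. *Kcnh3* and *Kcnj2* passed it, which gave 9 higher (10.8% and 13.4% of all). With one total 9 partner and transport genes were higher, beside 13.4% of all genes tested. *Kcnq1* was above 0 under these scalings, at 0.0160 and 0.136. Without a filter the median was 0.0201, and at 5 FPKM or more it was 2.15, over 14 genes, with the calls the same 7 and 2. Leaving out joined rows changed no potassium channel value. The scalings moved the median of all genes tested from -0.12 to 0.35 and 0.50. The lack of replicates limits every difference. Counting error matters mainly for values of a few fragments. Since the fragments were amplified and carry no molecular identifiers, error from other steps is not covered by it.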
